A study of Mus musculus with 16 samples.

Results

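Mcc (mutated in colorectal cancers) is a single gene, 1 of the 16707 genes in the deposited expression tables, and it was chosen because its response to stimulation was larger in Nlrx1-/- than in WT astrocytes. The values behind that choice are the deposited log2 CPM of Mcc, so the difference between the genotypes is given here as a description, without a test. RNA was measured in primary astrocytes, enriched from the brains of pups at postnatal day 6 by beads against ACSA-2, an astrocyte surface antigen, and grown in serum-free medium. The 4 groups were WT (C57BL/6J) vehicle, WT LPS+IFNγ, Nlrx1-/- vehicle and Nlrx1-/- LPS+IFNγ, and each held 4 litters, the litters of a genotype giving a culture to each treatment, so that 8 litters gave 16 libraries. Stimulation was with lipopolysaccharide (LPS, 500 ng/mL), a bacterial cell wall component, and the cytokine IFNγ (10 ng/mL) for 24 h, and vehicle was water. Pup age and vehicle are given here as in the methods of the study. Its results text gives a younger pup age, and a figure legend gives phosphate buffered saline as vehicle. Nlrx1, the gene deleted in the knockout line, lay between 4.08 and 4.44 log2 CPM in the 8 WT libraries and between 1.09 and 2.96 in the 8 Nlrx1-/- libraries. Cultures of a genotype with the same number are taken here as 1 litter, as in the design formula of the study, and how many pups a litter contributed is not given in the sources used here. P-values of responses measure the spread of the responses over these litters. The edgeR tests of Nlrx1-/- against WT had no litter term and took both libraries of a litter as independent.

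Mcc encodes a cytoplasmic coiled-coil protein that was first found as a gene near Apc altered in colorectal tumours. It is known to bind beta-catenin, the protein that carries the canonical Wnt signal to the nucleus, and to act as an inhibitor of that pathway, and it has also been tied to NF-κB signalling, cell migration and polarity. In the canonical pathway, Wnt ligands bind Frizzled receptors and Lrp5 or Lrp6, the destruction complex around Apc and Axin stops marking beta-catenin for degradation, and beta-catenin then turns on target genes with Tcf/Lef factors. Astrocytes both make Wnt ligands and respond to them.

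On the GRCm39 assembly, GENCODE M39 places Mcc on the minus strand of chromosome 18, from position 44558127 to 44945249, a span of 387123 bases with 6 annotated transcripts. Of these, 2 are annotated as protein-coding with a defined reading frame. The longer form, Mcc-201, has 19 exons and 1003 residues and begins at the far end of the span, with its first exon at 44945106 to 44945249. The shorter form, Mcc-202, has 17 exons and 828 residues, and its first exon lies at 44794765 to 44795333, inside the span of the longer one. Their starts are 149916 bases apart. They share 16 exons with 7257 bases, and each also has sequence of its own at the 5′ end, 601 bases in 3 exons for Mcc-201 and 569 bases in 1 exon for Mcc-202. Reads can therefore be told apart between the forms mainly by these 5′ parts. The libraries carry no strand information, and 3 genes on the plus strand overlap the span, 2 of them at an exon of a coding form, so reads from these cannot be separated from reads of Mcc by strand.

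Depth ranged from 27259420 to 43752903 assigned read pairs (median 35554625), and Mcc received between 691 and 4674 expected reads. The 11 astrocyte markers were all in the deposited table, with summed levels of 6869 to 10849 CPM in WT vehicle, 6319 to 9453 in WT LPS+IFNγ, 5386 to 8417 in Nlrx1-/- vehicle and 5391 to 7265 in Nlrx1-/- LPS+IFNγ. By their medians, 9 of the 11 were lower in Nlrx1-/- than in WT in vehicle, with Aldh1l1 and Slc1a3 higher, and 11 of 11 were lower in LPS+IFNγ. Of 9 markers of microglia and macrophages, which are defined by genes such as Aif1, Cx3cr1, Csf1r, Itgam, Tmem119, C1qa, C1qb and Ptprc, only P2ry12 was in the deposited table. Its level was between 0.0647 and 0.357 CPM in WT vehicle, 0.461 and 0.798 in WT LPS+IFNγ, 0.0481 and 0.444 in Nlrx1-/- vehicle, and 0.616 and 1.78 in Nlrx1-/- LPS+IFNγ, so it moved with the treatment, as Mcc did, and the other 8 were not in that table. The oligodendrocyte lineage list (9 of 9 genes) summed to between 2135 and 3733 CPM. The neuron list (6 of 7 genes) summed to between 21.2 and 27.4 CPM in the vehicle groups and between 60.7 and 93.1 in the stimulated groups, with median Tubb3 levels of 10.1 and 8.79 CPM in the vehicle groups of WT and Nlrx1-/- and 66.3 and 61.8 in the stimulated groups. Other members went the other way, such as Gad1, with medians of 5.19 and 7.36 CPM in the vehicle groups and 1.86 and 1.95 in the stimulated groups. Mural and fibroblast markers (7 of 7) summed to between 109 and 302 CPM, ependymal markers (4 of 5) to between 72.0 and 242, and endothelial markers (2 of 6) to between 2.29 and 10.01. The part of other cells in the level of Mcc was not tested. In bulk samples, a change in the number of cells of one type and a change of RNA per cell cannot be told apart.

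In unstimulated astrocytes Mcc stood at about the same level in both genotypes, and after LPS+IFNγ it was several fold higher in each, with the highest levels in Nlrx1-/- cultures. In WT vehicle, the deposited log2 CPM of Mcc were 4.51, 4.58, 4.74 and 4.84 for litters 1 to 4. In Nlrx1-/- vehicle they were 4.60, 4.79, 4.71 and 4.65. The vehicle groups overlapped, with means of 4.67 ± 0.15 (SD, n = 4) and 4.69 ± 0.08 (SD, n = 4), a difference of 0.02 on the log2 scale.

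In WT LPS+IFNγ the levels were 6.64, 6.09, 6.00 and 6.04 log2 CPM for litters 1 to 4. In Nlrx1-/- LPS+IFNγ they were 6.92, 7.10, 6.70 and 7.09. Every stimulated library was above every vehicle library, which 10.7% of genes in the deposited table also showed in that direction. Among the stimulated libraries the genotypes did not overlap, as was the case, with the knockout above, for 7.09% of all genes. The margin was narrow, since the lowest Nlrx1-/- library, litter 3 at 6.70, lay just above the highest WT library, litter 1 at 6.64. The WT mean was 6.19 ± 0.30 (SD, n = 4) and the Nlrx1-/- mean 6.95 ± 0.19 (SD, n = 4), a difference of 0.76 (1.69-fold) that describes why Mcc was chosen. In linear units, Mcc went from 22.7 to 28.5 CPM in WT vehicle to between 64.0 and 99.8 in WT LPS+IFNγ, and from 24.2 to 27.6 CPM in Nlrx1-/- vehicle to between 104 and 137 in Nlrx1-/- LPS+IFNγ.

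**Figure D1:**
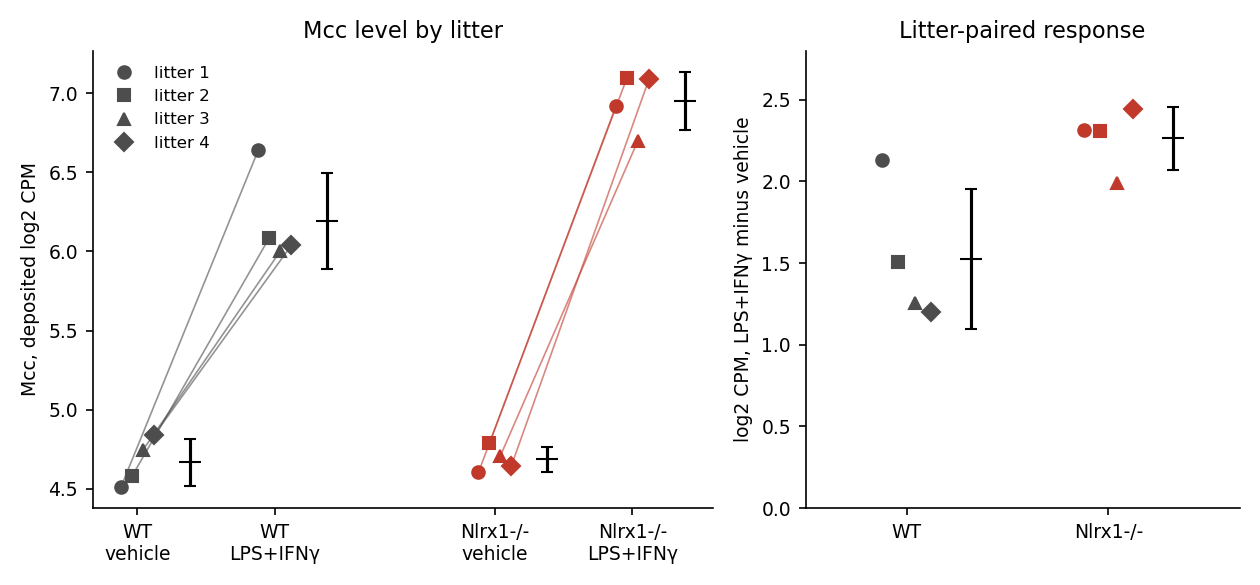
Left, deposited log2 CPM of Mcc in the 16 libraries by group, each symbol a litter and each line joining the vehicle and LPS+IFNγ libraries of a litter, and right, the log2 response of each litter. Black marks with bars are the mean and SD of 4 litters, and WT litter 1 stands apart from the other 3 WT litters after stimulation, at 6.64.

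Mcc rose in each of the 8 litters. For WT, the paired log2 responses by litter number were 2.13, 1.51, 1.26 and 1.20. For Nlrx1-/-, they were 2.31, 2.31, 1.99 and 2.44. WT litter 1 responded more than Nlrx1-/- litter 3, so the responses of the genotypes overlapped by this pair, while the other 3 WT litters lay below every Nlrx1-/- litter. Responses that did not overlap, with the knockout above, were found in 3.06% of all genes, and Mcc was not one of them. The WT average was 1.53 ± 0.43 (SD, n = 4), or 2.88-fold. The Nlrx1-/- average was 2.26 ± 0.19 (SD, n = 4), or 4.80-fold, a difference of 0.74. Without WT litter 1 the WT response was 1.32, and the difference 0.94.

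Mcc was chosen for the difference of its responses, and their mean, another contrast of the same values, was tested. If the size of the Nlrx1-/- response also entered the choice, this p is not free of it. It was 1.88 ± 0.09 (SE) on the log2 scale (edgeR quasi-likelihood test, adjusted p = 4.52e-08, n = 8 litters), with the rise seen in 8 of 8 litters. Of 16066 genes tested, 59.5% passed this test, 29.7% as higher (63.7% at an unadjusted p under 0.05), and 578 genes had a larger average response than Mcc. The same fit gave 1.51 ± 0.13 (SE) for WT and 2.25 ± 0.13 (SE) for Nlrx1-/-, and a difference of responses of 0.74 ± 0.18 (SE), which 920 of the genes exceeded. Across all genes the difference of responses had a median of -0.02 and a median size of 0.19.

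The deposited transcript quantification also shows which forms of Mcc were read. The Salmon tables hold 9 RefSeq transcripts that can be given to Mcc, from 7374 to 10778 nucleotides long. Of these, 7 were paired with the gene by accession. The other 2, XM_036161179.1 (7861 nucleotides) and XM_036161181.1 (7374 nucleotides), were found because the deposited level of Mcc exceeded the sum of the 7 in the stimulated libraries, by 2.14 to 7.55 TPM, and in none of the 8 vehicle libraries, and because among 1490 unpaired transcripts a single set of 1 or 2 filled that gap in all 16 libraries (largest misfit 2.2e-10 TPM).

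The 2 transcripts with most reads, NM_001085373.1 (7875 nucleotides) and NM_001085374.1 (7843 nucleotides), together held 82.4% of all Mcc reads. They differ by 32 nucleotides in length, as Mcc-201 and Mcc-202 do, and each is 17 nucleotides longer than that GENCODE form. On this match of lengths alone, since the files do not pair these identifiers, NM_001085373.1 corresponds to the longer protein form and NM_001085374.1 to the shorter one.

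NM_001085374.1 was the main transcript at rest. By litter number, it took 83.3, 90.0, 97.0 and 91.1% of Mcc reads in WT vehicle. The Nlrx1-/- vehicle libraries had 86.7, 75.2, 76.5 and 75.8%. After stimulation it took 1.12, 4.43, 23.5 and 16.04% in WT and 5.52, 5.89, 8.58 and 8.04% in Nlrx1-/-. Each stimulated library was thus below each vehicle library. In absolute terms its level also went down in 8 of 8 litters, in WT from a mean of 6.24 ± 0.93 TPM to 1.69 ± 1.48 (SD, n = 4 each). In Nlrx1-/- the mean went from 5.20 ± 0.30 TPM to 1.96 ± 0.38 (SD, n = 4 each).

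NM_001085373.1 did the opposite. In WT vehicle it had, by litter number, 14.1, 8.02, 0 and 3.15% of Mcc reads. In Nlrx1-/- vehicle it had 11.99, 22.6, 22.9 and 0%. After LPS+IFNγ it had 70.5, 68.6, 46.9 and 56.4% in WT and 84.0, 69.2, 82.6 and 67.8% in Nlrx1-/-. Each of the 8 litters went up and no stimulated library overlapped a vehicle library. The level of NM_001085373.1 in WT went from a mean of 0.407 ± 0.375 TPM to 10.6 ± 4.26 (SD, n = 4 each). In Nlrx1-/- it went from 0.972 ± 0.749 TPM to 21.2 ± 1.64 (SD, n = 4 each). A value of 0 is an estimate that Salmon makes when it divides reads between transcripts that share most of their exons, so that a low share of either form is uncertain.

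**Figure D2:**
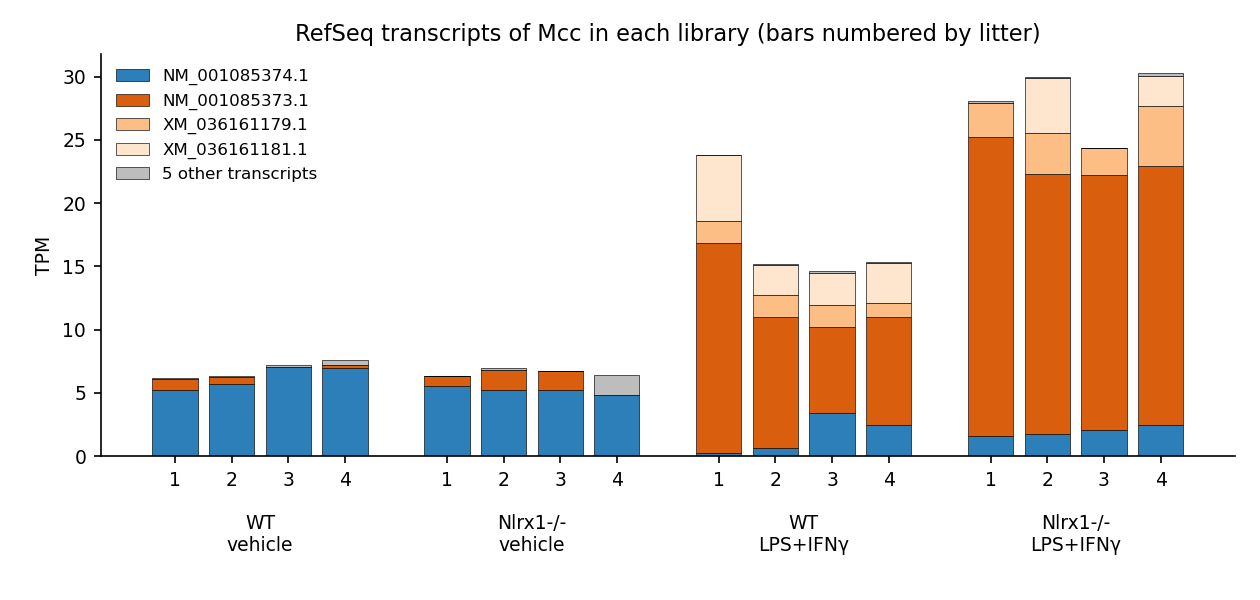
TPM of the RefSeq transcripts of Mcc in each library, as stacked bars in the 4 groups, numbered by litter. The vehicle bars, from 6.19 to 7.61 TPM in all, are mostly NM_001085374.1. The stimulated bars, from 14.6 to 30.3 TPM in all, have NM_001085373.1 as their largest part, at 46.5% of TPM in WT litter 3.

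The share of reads on NM_001085373.1 rose by 57.9 ± 9.09 percentage points (SD, n = 8 litters; exact sign-flip permutation test, two-sided, p = 0.00781, the smallest p that 8 litters allow). NM_001085373.1 was tested as the transcript with most Mcc reads over all libraries. It led through the stimulated libraries, with mean reads of 1423 and 3101 in WT and Nlrx1-/-, beside 47.9 and 141 in vehicle. A rise was thus favoured by the choice, and this p is not free of it. The share of NM_001085374.1, whose test was chosen after the data were seen, fell by 75.3 percentage points (same exact permutation test, p = 0.00781, n = 8 litters). The same measure was taken for the 8141 genes with at least 100 reads in every library and 2 or more transcripts. In 5.48% of them all 8 litters moved one way, and in 1.12% the litters moved one way and the mean share also crossed 50%, as it did for Mcc, from 10.3 to 68.2%. The median size of change was 2.34 points, and Mcc ranked number 5 by size. For the other genes only transcripts paired by accession were counted, and with that count Mcc would have changed by 76.9 points.

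The rise in the share of NM_001085373.1 was 54.3 ± 5.80 points in WT litters and 61.5 ± 11.2 in Nlrx1-/- litters (SD, n = 4 each), a difference of 7.20 points that shares its contrast with the choice of Mcc and is given without a test. With only the 7 transcripts paired by accession this difference was -0.73 points. The range of changes was 46.9 to 60.6 points in WT and 46.6 to 72.0 in Nlrx1-/-, which overlap. Averaged over both treatments, a litter had 33.5 ± 8.48% of its Mcc reads on this transcript in WT and 45.1 ± 8.03% in Nlrx1-/- (SD, n = 4 each), 11.7 points apart (exact permutation test, two-sided, p = 0.114, where the smallest possible p is 0.0286). This difference did not pass the threshold and does not show that the genotypes have the same share.

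**Figure D3:**
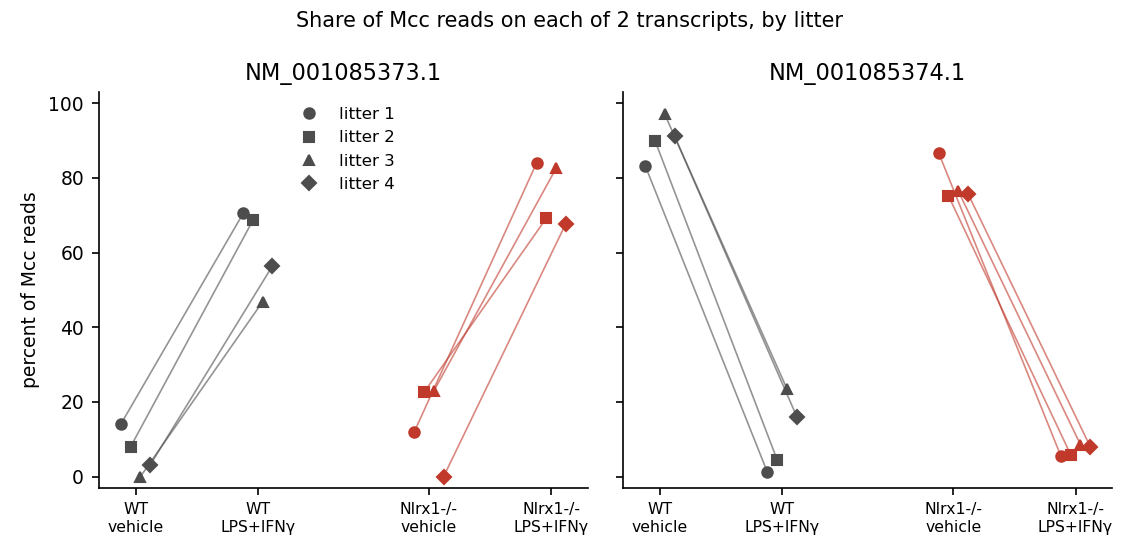
Percent of Mcc reads assigned to NM_001085373.1 (left) and NM_001085374.1 (right) by group, each symbol a litter and each line joining the libraries of a litter. NM_001085373.1 rose and NM_001085374.1 fell in all 8 litters, with no overlap between treatments.

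In the split of reads that Salmon estimated, the difference between stimulated genotypes lay mostly on one transcript. In LPS+IFNγ the mean of NM_001085373.1 was 2.01 times as high in Nlrx1-/- as in WT, by 10.7 TPM, and that of NM_001085374.1 was 1.16 times as high, by 0.27 TPM. XM_036161179.1 had a mean of 1.60 ± 0.30 TPM in WT and 3.21 ± 1.15 in Nlrx1-/- (SD, n = 4 each). XM_036161181.1 had 3.31 ± 1.32 TPM in WT and, with the same n, 1.68 ± 2.11 in Nlrx1-/-, where it was at 0 in litters 1 and 3. XM_036161179.1 and XM_036161181.1 were both at 0 in each vehicle library. In stimulated Nlrx1-/- litters 1 and 3, NM_001085373.1 took 84.0 and 82.6% of Mcc reads, and in litters 2 and 4 it took 69.2 and 67.8%. Whether the estimate moved reads between NM_001085373.1 and XM_036161181.1 was not tested. Among the other transcripts, XM_030250510.2 took 24.2% of Mcc reads in Nlrx1-/- vehicle litter 4, the litter in which NM_001085373.1 was at 0, and XM_006526023.5 had no reads in any library.

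Genes that work with Mcc were measured alongside it. The list of binding partners and the paralogue holds 6 genes, and 5 were tested. In the average response 1 rose and 3 fell (20% and 60%), beside 29.7% and 29.8% of all genes. Ctnnb1, which encodes beta-catenin, was at 10.44 ± 0.03 log2 CPM (SD, n = 4) in WT vehicle, 10.34 ± 0.05 (SD, n = 4) in WT LPS+IFNγ, 10.41 ± 0.05 (SD, n = 4) in Nlrx1-/- vehicle and 10.23 ± 0.04 (SD, n = 4) in Nlrx1-/- LPS+IFNγ. It fell with stimulation by 0.16 ± 0.03 (SE) log2 units on average (edgeR, adjusted p = 6.57e-04). Scrib, a polarity protein, fell by 0.35 ± 0.04 (SE, edgeR adjusted p = 3.12e-05), and Myh10, non-muscle myosin IIB, fell by 0.29 ± 0.04 (SE, edgeR adjusted p = 5.11e-05). Nherf1, a PDZ scaffold listed under its older symbol Slc9a3r1, rose by 0.54 ± 0.04 (SE, edgeR adjusted p = 4.88e-07). Ccar2, a nuclear partner, had an average response of -0.03 ± 0.03 (SE, edgeR adjusted p = 0.476). None of the 5 passed the edgeR test for a difference of responses or between genotypes in vehicle, beside 0% of all genes in both, or between genotypes in LPS+IFNγ, beside 5.03% of all genes. At an unadjusted p under 0.05 there were 1, 1 and 2 of the 5 in these comparisons, beside 15.4%, 19.6% and 28.4% of all genes. Ushbp1, the paralogue, was not tested.

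Of the 108 genes in the 7 Wnt lists, Mcc left out, 93 were tested. In the average response 63 passed, 19 as higher and 44 as lower, or 20.4% and 47.3% of those tested, beside 29.7% and 29.8% of all genes. The median response of the 93 was -0.16 and that of all genes -0.02. In WT alone 13 of the 93 were called higher and 32 lower, beside 23.7% and 20.2% of all genes (43.9% in both directions). In Nlrx1-/- alone 16 were called higher and 43 lower, beside 25.3% and 24.2% of all genes (49.4% in both directions). At an unadjusted p under 0.05 there were 52 in WT and 62 in Nlrx1-/-, beside 51.3% and 55.7% of all genes. Whether the genotypes differ in these counts was not tested.

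Of 13 tested genes in the ligand list, 8 fell (61.5%) and 0 rose in the average response, beside 29.8% and 29.7% of all genes. These 8 included Porcn and Wls, which modify and export the ligands and are not ligands. In WT alone 3 of the 13 (23.1%) were called lower, beside 20.2% of all genes, and in Nlrx1-/- alone 8 (61.5%), beside 24.2% of all genes. Wnt4, whose group means after stimulation were below 1 CPM, fell by 2.23 ± 0.23 (SE, edgeR adjusted p = 1.12e-05) and Wnt5b by 0.64 ± 0.12 (SE, edgeR adjusted p = 6.63e-04). Among 22 receptors and Dishevelled genes, 5 rose and 11 fell (22.7% and 50%), beside 29.7% and 29.8% of all genes. The Frizzled receptor Fzd1 rose by 1.25 ± 0.07 (SE, edgeR adjusted p = 1.19e-07) and the receptor kinase Ror1 by 0.65 ± 0.11 (SE, edgeR adjusted p = 5.57e-04), while Fzd10 fell by 1.10 ± 0.10 and Fzd9 by 0.73 ± 0.10 (SE).

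Of 15 tested secreted and membrane modulators, 5 rose and 7 fell (33.3% and 46.7%), beside 29.7% and 29.8% of all genes. Sfrp1, a secreted Frizzled-related antagonist, rose from 3.17 ± 0.13 to 6.18 ± 0.36 log2 CPM in WT and from 3.19 ± 0.11 to 6.00 ± 0.35 in Nlrx1-/- (SD, n = 4 each), an average response of 2.91 ± 0.10 (SE, edgeR adjusted p = 2.96e-09). Rspo3, an R-spondin that amplifies Wnt signals, rose by 1.34 ± 0.21 (SE, edgeR adjusted p = 2.30e-04). Wif1, which binds and inhibits Wnt ligands, fell by 3.59 ± 0.32 (SE, edgeR adjusted p = 3.63e-06). It reached the mean of 1 CPM needed to be named only through the vehicle groups, at 1.08 and 1.12 log2 CPM in WT and Nlrx1-/-, and was at -2.31 and -2.02 after stimulation. The glypican Gpc3 fell by 0.65 ± 0.09 (SE).

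Of 10 destruction complex genes, 1 rose and 3 fell (10% and 30%), beside 29.7% and 29.8% of all genes. Axin1 rose by 0.14 ± 0.05 (SE, edgeR adjusted p = 0.0320). Among the 3 that fell were Gsk3b, the kinase that marks beta-catenin, by 0.26 ± 0.04 (SE, edgeR adjusted p = 9.46e-05) and Apc by 0.16 ± 0.06 (SE, edgeR adjusted p = 0.0460). For Apc the paired transcripts held as little as 66.3% of its deposited level. Among other Wnt genes named here, the lowest value was 72.9% for Tle1, 77.15% for Scrib, 84.2% for Tcf7 and 86.0% for Wnt5b. Axin2, a member of the complex that is also a readout of the pathway and is named here after its values were seen, had an average response of 0.02 ± 0.09 (SE, edgeR adjusted p = 0.884). Of 13 nuclear factors, 2 rose and 6 fell (15.4% and 46.2%), beside the same shares of all genes. The deacetylase Hdac1 rose by 0.41 ± 0.03 (SE) and the beta-catenin co-factor Bcl9 by 0.13 ± 0.04 (SE), and the repressor Tcf7l1 fell by 0.99 ± 0.05 (SE, edgeR adjusted p = 2.91e-08) and the co-repressor Tle1 by 0.47 ± 0.08 (SE).

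In the target gene list 5 of 15 rose and 6 fell (33.3% and 40%), beside 29.7% and 29.8% of all genes. Ccnd1, cyclin D1, rose by 1.34 ± 0.09 (SE, edgeR adjusted p = 3.29e-07) and Tcf7 by 1.22 ± 0.13 (SE, edgeR adjusted p = 1.58e-05). Apcdd1, itself an inhibitor of Wnt signals, fell by 2.32 ± 0.14 (SE, edgeR adjusted p = 2.21e-07), and Nkd2, a feedback inhibitor, fell by 1.71 ± 0.30 (SE, edgeR adjusted p = 5.56e-04). Nkd2 also reached the mean of 1 CPM only through the vehicle groups, at 0.47 and 0.87 log2 CPM, and was at -0.90 and -1.02 after stimulation.

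**Figure D4:**
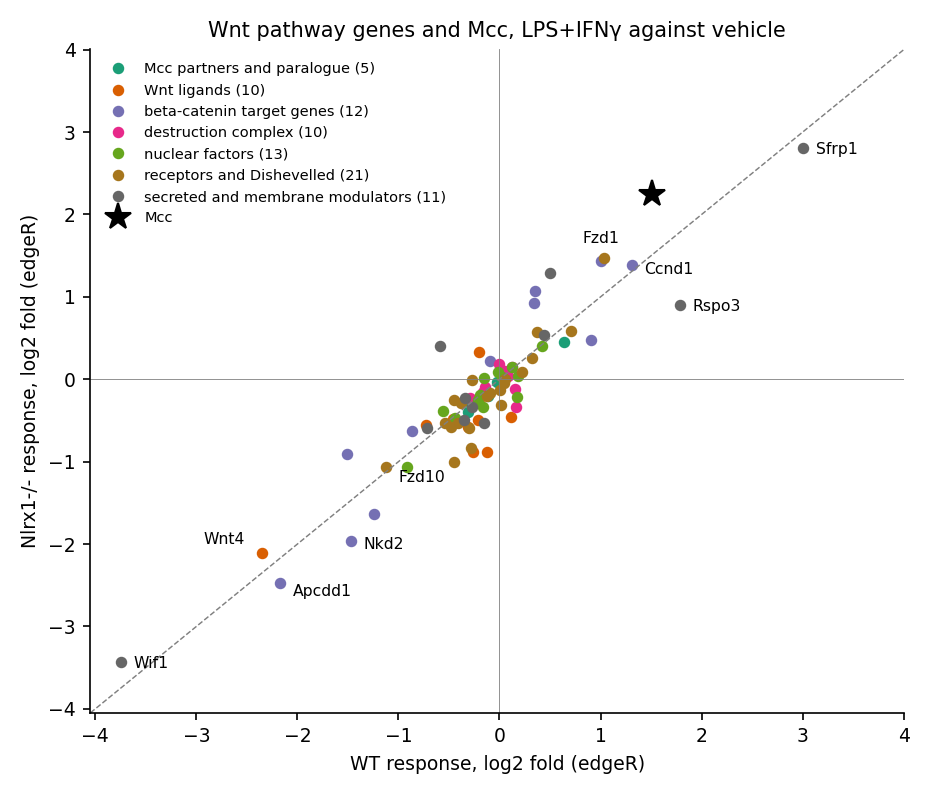
Fitted log2 response to LPS+IFNγ in WT (horizontal) and Nlrx1-/- (vertical) for the 82 tested Wnt genes with a mean of at least 1 CPM, coloured by list, and for Mcc (star). The dashed line marks equal responses, 34 of the 82 genes lie above it, and 2 of them exceed the KO minus WT difference of Mcc.

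Between genotypes, the number of Wnt genes called moved with the tool and with single litters, as did that of all genes. No gene of the 93 passed for the difference of responses (edgeR), where 0% of all genes passed. At an unadjusted p under 0.05 there were 14 (15.1%) beside 15.4% of all genes, and DESeq2 called 3 of the 93, beside 1.93% of all genes. In vehicle, 0 of 93 passed (edgeR, 0% of all genes), with 22 (23.7%) at an unadjusted p under 0.05 beside 19.6% of all genes, and DESeq2 called 4, beside 4.86% of all genes. In LPS+IFNγ, 3 of 93 (3.23%) passed beside 5.03% of all genes, 1 as higher (2.65% of all genes) and 2 as lower (2.38%). The 3 were Fzd1, higher in Nlrx1-/- by 1.04 ± 0.26 (SE, edgeR adjusted p = 0.0423), Wnt7b, lower by 0.89 ± 0.20 (SE, edgeR adjusted p = 0.0396), and the Apc paralogue Apc2, lower by 0.94 ± 0.25 (SE, edgeR adjusted p = 0.0471). They were named after their values were seen. At an unadjusted p under 0.05 there were 26, beside 28.4% of all genes. DESeq2 called 7 as higher and 10 as lower, beside 15.6% of all genes in both directions, and edgeR with the replicate block called 4 and 8, beside 13.7%. No Wnt gene passed without any one of WT litters 2, 3 and 4 or Nlrx1-/- litters 1, 2 and 4, where at most 1.35% of all genes passed. Without WT litter 1, 3 passed as higher and 5 as lower, beside 8.56% of all genes. Without Nlrx1-/- litter 3, 9 and 12 passed, beside 20.5% of all genes. Without that litter, 3 also passed as lower for the difference of responses, beside 1.93% of all genes, and in vehicle 6 passed as higher and 5 as lower, beside 8.04%. In vehicle without WT litter 1 there were 2 and 1, beside 0.937% of all genes.

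Around Mcc, the reference table lists 37 genes within 1000000 bases, 20 of them protein-coding, and 10 were tested. The average responses below stand beside 59.5% of all genes that passed, 29.7% as higher and 29.8% as lower. Ythdc2, an RNA helicase that reads m6A, rose by 0.94 ± 0.05 (SE, edgeR adjusted p = 1.30e-07), and Dcp2, the mRNA decapping enzyme, rose by 0.75 ± 0.04 (SE, edgeR adjusted p = 4.18e-08). Dpysl3 rose by 0.18 ± 0.04 (SE, edgeR adjusted p = 0.00267). The potassium channel gene Kcnn2 fell by 1.85 ± 0.21 (SE, edgeR adjusted p = 2.12e-05), with paired transcripts holding as little as 34.5% of its deposited level. A930012L18Rik, which overlaps Mcc on the other strand, fell by 2.24 ± 0.83 (SE, edgeR adjusted p = 0.0368), at mean levels under 1 CPM. Gm32139 and A330093E20Rik, also under 1 CPM, fell, and Jakmip2, Eif3j2 and Gm3650 did not pass. None of the 10 passed the edgeR test for the difference of responses or between genotypes in vehicle, beside 0% of all genes, or in LPS+IFNγ, beside 5.03%. At an unadjusted p under 0.05, Kcnn2 passed for the difference of responses (KO minus WT -0.91 ± 0.41, SE), beside 15.4% of all genes. Dpysl3 passed in vehicle (KO minus WT -0.15 ± 0.06, SE), beside 19.6% of all genes. In LPS+IFNγ, Kcnn2 and A330093E20Rik passed (KO minus WT -1.63 and -2.63), beside 28.4% of all genes.

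The levels of 947 of 12678 genes with at least 1 CPM had a Pearson r above 0.9 with Mcc over the 16 libraries, which share their treatments and litters, so that these values describe the common response. The highest were Lpin3, a phosphatidate phosphatase (0.987), the proteasome subunit Psmc2 (0.984), Prrc2b (0.983), the transporter Slco3a1 (0.983), Nrd1 (0.981), Pla1a (0.980), Nploc4 (0.980) and Psmd11 (0.980). Lpin3 had responses of 1.57 in WT and 2.47 in Nlrx1-/-, and Slco3a1 of 2.35 and 3.29. Psmc2 had 0.60 and 0.77. Pla1a reached the mean of 1 CPM only through the stimulated groups, at 1.297 and 3.435 log2 CPM, and was at -3.83 and -4.13 in vehicle, so its r rests on vehicle values near the lower end of the scale. The lowest were Spon1 (-0.981), Nrep (-0.980), Tspan11 (-0.978) and Sez6 (-0.975). After the group means were taken off, which leaves the differences between libraries within a group, the highest were Cherp (0.906), Grk2 (0.891), Thap2 (0.847), Hsph1 (0.828) and Trappc8 (0.828).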

How the data were processed

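Paired-end reads from poly-A libraries without strand information were quantified by the authors with Salmon 1.7.0 against GRCm39 transcripts, and the authors deposited, per transcript and library, the expected count, the TPM and the effective length. The authors also deposited, per gene, log2 CPM and CPM made with limma 3.58.1 from length-scaled counts. These CPM are a signal adjusted by TMM, so their columns sum to between 923353 and 1109130 in the deposited table. The deposited effective lengths, another kind of value, served as length offsets. All columns were mapped to the listed samples by their labels.

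Mcc values came from the deposited log2 CPM. For tests, the expected counts of each gene were added up from the 106440 of 129698 transcripts that the RefSeq table pairs with a symbol by accession (96.7 to 97.3% of reads), with the 2 added transcripts of Mcc, and rounded. The reference table (GRCm38.p6) gave this pairing, names and neighbours, and positions are from GENCODE M39. edgeR 4.0.16 in R 4.3.3 (quasi-likelihood, TMM, filterByExpr with a minimum count of 10) was fitted on all genes with the design of the study, litters within genotype, and with 4 groups and no litter term for KO against WT. P-values were adjusted by the Benjamini-Hochberg method, with a threshold of 0.05. Shares were tested with exact permutations in scipy 1.17.1. The difference of responses in the share of NM_001085373.1 was planned as a test, and its p is not given because it shares a contrast with the choice of Mcc.

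Mcc, the gene lists and the rule for named genes were chosen with earlier results of these data known. Named are Mcc, Nlrx1, its partners, for each list the called genes of largest average response at 1 CPM or more (2 in each direction), tested neighbours, and the genes most like Mcc by r. No sequence of the locus is shown. Libraries of a litter deviated together, with r between 0.177 and 0.519, and the design formula of the study blocks on litter, whereas same-numbered litters of different genotypes did not, with a median r of 0.008. On simulated data, edgeR called 95.0% of genes changed by 1 log2 unit in the average response among 15716 genes, and 48.0% for the difference of responses among 15724 genes. The simulation used a single dispersion for all genes and no litter effect, so these percentages need not hold for the data. Alternatives used DESeq2 1.42.0, limma 3.58.1 and the settings named at the end. Precision follows from the reads per gene and the spread between litters.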

Additional observations from a re-analysis of the deposited data

Results flagged for a closer look

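Of 18 groups of 4 values, 3 held a value farther from the rest than the critical value of Dixon's ratio allows, where chance gives about 1 in 20. Mcc in WT LPS+IFNγ litter 1 was at 6.64 log2 CPM, a gap of 0.868 of the range of the group. NM_001085374.1 took 86.7% of Mcc reads in Nlrx1-/- vehicle litter 1, a gap of 0.887 of the range. The change of its share with stimulation was -81.2 percentage points in the same litter, a gap of 0.881 of the range.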

How the results depend on the processing

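The average response of Mcc kept its direction and its call in all 15 alternatives, with values from 1.51 to 1.94 and adjusted p from 1.11e-85 (DESeq2) to 7.36e-07. With no replicate block, that is without litter terms, it was 1.90, and with only the 7 transcripts paired by accession, a setting chosen after the data were seen, it was 1.51. All these alternatives reuse the libraries from which Mcc was chosen, so the limit given above for its p holds for them too. The difference between the responses of Mcc was 0.63 to 0.94 when 1 litter was left out. On log2(TPM + 0.1) the KO response was 2.07, and from only the 7 paired transcripts the responses were 0.82 in WT and 1.80 in KO. The rise in the share of NM_001085373.1, a transcript that led in reads through the stimulated libraries, kept its call in the 2 other settings, 57.5 and 76.9 points. It also did so without any 1 litter (55.9 to 59.5 points). The difference of this share between genotypes was 8.32 to 15.4 points without 1 litter, where the smallest possible p is 0.0571. The difference of its responses was 3.71 to 12.2 points without 1 litter and -0.73 from only the 7 paired transcripts.

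Wnt calls in the average response stayed within 17 to 22 up and 40 to 47 down. DESeq2 called 3 down in the difference of responses (1.93% of all genes called), 3 up and 1 down in vehicle (4.86%), and 7 up and 10 down in LPS+IFNγ (15.6%), where limma called 3 up and 6 down (8.80%) and the replicate block 4 up and 8 down (13.7%). Leaving out 1 litter gave 0 to 3 down in the difference of responses, 0 to 6 up and 0 to 5 down in vehicle, and 0 to 9 up and 0 to 12 down in LPS+IFNγ. The highest count in each of these was without Nlrx1-/- litter 3, when 1.93%, 8.04% and 20.5% of all genes were called. The cause was not tested. None of the 8 genes most like Mcc by Pearson r was among the first 8 by Spearman rho, and 6 to 7 were without 1 litter. Depth limits the split of low Mcc reads in vehicle between transcripts that share most of their length.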
